A study of Homo sapiens with 12 samples.

Results

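The enzymes of serine synthesis, folate-bound one-carbon transfer and transsulfuration were followed through 10 genes, PHGDH, PSAT1, PSPH, SHMT1, SHMT2, MTHFD1, MTHFD2, MTHFD1L, CBS and CTH, picked by gene symbol from the 13881 genes of the deposited table. All 10 were found, and all 10 passed the filter for testing, which asked for at least 1 FPKM in at least 3 libraries and left 13353 genes. FPKM scales sequenced fragments by transcript length and library size. RNA came from 2 established human lines of acute myeloid leukaemia, KG-1 and MOLM-14, grown in serum-containing RPMI medium. Each line was exposed for 96 h to ASLAN003, an inhibitor of the pyrimidine synthesis enzyme DHODH, or to its solvent DMSO, with 3 libraries in each of the 4 groups. No dose of ASLAN003 is stated in the sources used here. Nothing states that the 3 libraries of a group came from separate cultures, so a p-value here speaks only for the scatter among these libraries, which may be technical.

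Cells make serine from a glycolytic intermediate in a short chain, in which PHGDH oxidises 3-phosphoglycerate, PSAT1 transfers an amino group and PSPH removes the phosphate. The SHMT enzymes then split serine into glycine and a one-carbon unit carried by folate. The MTHFD enzymes interconvert the folate-bound forms of this unit and formate. SHMT2, MTHFD2 and MTHFD1L act in the mitochondria, and SHMT1 and MTHFD1 in the cytosol. The unit serves purine and thymidylate synthesis. Serine also joins homocysteine through CBS, and CTH cleaves the product to cysteine, a precursor of glutathione. Leukaemic blasts, like other proliferating cells, are known to draw on this network for nucleotides.

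In KG-1, 7 of the 10 genes fell under ASLAN003 at an adjusted p under 0.05 and none rose, while 14.3% of all tested genes fell, 19.4% rose and 33.7% changed in either direction. Their median log2 change was -0.82, and the median of all tested genes was 0.05. MTHFD1L and PHGDH, with 3.50-fold and 2.82-fold lower mean levels, had the lowest adjusted p of the 10. In MOLM-14, 2 of the 10 fell, PHGDH and CBS, and none rose, against 3.33% of all tested genes that fell, 9.69% that rose and 13.0% that changed. The median log2 change of the 10 there was -0.41, and that of all tested genes 0.08. Changes are differences of group means of log2(FPKM + 1), a scale that shrinks changes at low levels, and they are given ± SE. The tests are those of limma with Benjamini-Hochberg adjustment over all tested genes.

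A few facts about the libraries bear on these values. The 12 libraries had similar depths, estimated from the steps between low values at 17600000 to 18800000 fragments. ASLAN003 replicate 1 of MOLM-14 stood apart from its group, with a second principal component score of 36.2 beside 14.6 and 9.37 for the other 2. On this component the DMSO libraries scored -41.8 to -38.1 in KG-1 and -16.7 to -14.8 in MOLM-14. Treated KG-1 libraries scored 34.7 to 36.7. Replicate 1 was thus the treated MOLM-14 library farthest from the controls, and fits without it lack that library. The MOLM-14 changes of the 10 genes and of the pathway genes called there are also given without it. CD33 and SPI1, which mark myeloid cells, were present in both lines, with mean levels of 26.5 and 123 FPKM in KG-1 and of 40.4 and 115 FPKM in MOLM-14 under DMSO. CD34, a progenitor antigen for which KG-1 is commonly described as positive, reached at most 0.17 FPKM in any library, so this defining marker was absent from the libraries labelled KG-1. HOXA9 and MEIS1, which KMT2A-rearranged lines such as MOLM-14 express strongly, were at 69.2 and 20.1 FPKM in MOLM-14 and at 8.30 and 6.11 FPKM in KG-1 under DMSO. The summed level of 8 myeloid markers was 677 to 719 FPKM under DMSO and 1548 to 1604 FPKM under ASLAN003 in KG-1, and 1315 to 1394 and 3598 to 4955 FPKM in MOLM-14. Of these 8, 5 rose and 2 fell in KG-1, and 3 rose and 1 fell in MOLM-14. LYZ, the lysozyme gene, made up most of the shift of the sum, from 91.7 ± 9.90 to 846 ± 57.6 FPKM in KG-1 and from 674 ± 14.4 to 3411 ± 590 FPKM in MOLM-14. Without LYZ, left out after its values were seen, the sums were 588 to 635 and 707 to 765 FPKM in KG-1 and 632 to 712 and 771 to 950 FPKM in MOLM-14. MPO, the myeloperoxidase gene of granule-bearing precursors, fell in both lines, from 160 ± 16.9 to 37.9 ± 5.63 FPKM in KG-1 (adjusted p = 1.57e-06) and from 20.8 ± 3.79 to 4.83 ± 0.710 FPKM in MOLM-14 (adjusted p = 3.44e-05). CEBPA, a myeloid transcription factor gene, fell in KG-1 from 155 ± 8.68 to 122 ± 11.7 FPKM (adjusted p = 0.0113). Besides LYZ, the markers that rose in KG-1 were SPI1 (mean 123 to 244 FPKM), PTPRC (73.1 to 176), CSF3R (54.5 to 98.4) and FLT3 (18.5 to 34.4). In MOLM-14 they were SPI1 (115 to 183 FPKM) and CSF3R (47.55 to 83.1). CSF3R lost that call without ASLAN003 replicate 1 (adjusted p = 0.0769). Of 8 lymphoid markers, 4 were listed, with sums of 20.3 to 24.6 and 43.1 to 46.4 FPKM in KG-1 and of 40.6 to 48.0 and 67.1 to 104 FPKM in MOLM-14, and CD3D was listed at means of 0.09 FPKM or less. NKG7, a gene of cytotoxic granules, made up most of these sums, which without it (also chosen after seeing the values) were 1 to 2.71 and 6.77 to 9.61 FPKM in KG-1 and at most 1.39 FPKM in MOLM-14. The B-cell receptor genes CD79A and CD79B rose in KG-1, from 1.32 ± 0.593 to 6.74 ± 1.08 FPKM (adjusted p = 0.000105) and from 0.303 ± 0.183 to 1.80 ± 0.775 FPKM (adjusted p = 0.0155). In MOLM-14 their means under DMSO and ASLAN003 were 0.183 and 0.19 FPKM for CD79A and 0.667 and 0.05 FPKM for CD79B. Of 10 erythroid and megakaryocyte markers, 2 were listed, and their sum did not exceed 3.44 FPKM. The part of these marker shifts in the results below was not tested, and fewer cells of a kind cannot be told apart from less RNA per cell in bulk samples.

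FPKM is relative to the whole library, so the scaling matters for directions. Centring each library on its median shifted the median change over all tested genes by -0.12 in KG-1 and -0.15 in MOLM-14, and rescaling to a constant sum of the genes left after removing histone, mitochondrial, ribosomal RNA and small RNA genes moved it by 0.13 and 0.12. Of all calls in KG-1, 57.5% were higher as deposited, 42.7% after centring, 46.1% after quantile normalization and 72.7% after rescaling. In MOLM-14 these shares were 74.5%, 44.1%, 57.1% and 88.1%, and for KG-1 against MOLM-14 under DMSO they were 55.1%, 50.3%, 49.5% and 65.8%. Against this background, the 10 genes summed to 434 ± 31.4 FPKM (SD, n = 3) under DMSO and 273 ± 6.57 FPKM under ASLAN003 in KG-1. In MOLM-14 the sums were 861 ± 49.1 and 695 ± 86.7 FPKM. Scaled to a sum of 1000000 listed FPKM per library, the 10 genes made up 532 to 613 under DMSO and 392 to 411 under ASLAN003 in KG-1, and 965 to 1098 and 812 to 950 in MOLM-14. The ranges did not overlap between treated and control libraries in either line, by a narrow margin in MOLM-14. Single genes did not overlap in FPKM for 55.9% of all tested genes in KG-1 and 25.9% in MOLM-14. SHMT2 alone, not called under treatment in MOLM-14, had a mean of 356 FPKM there under DMSO.

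**Figure D1:**
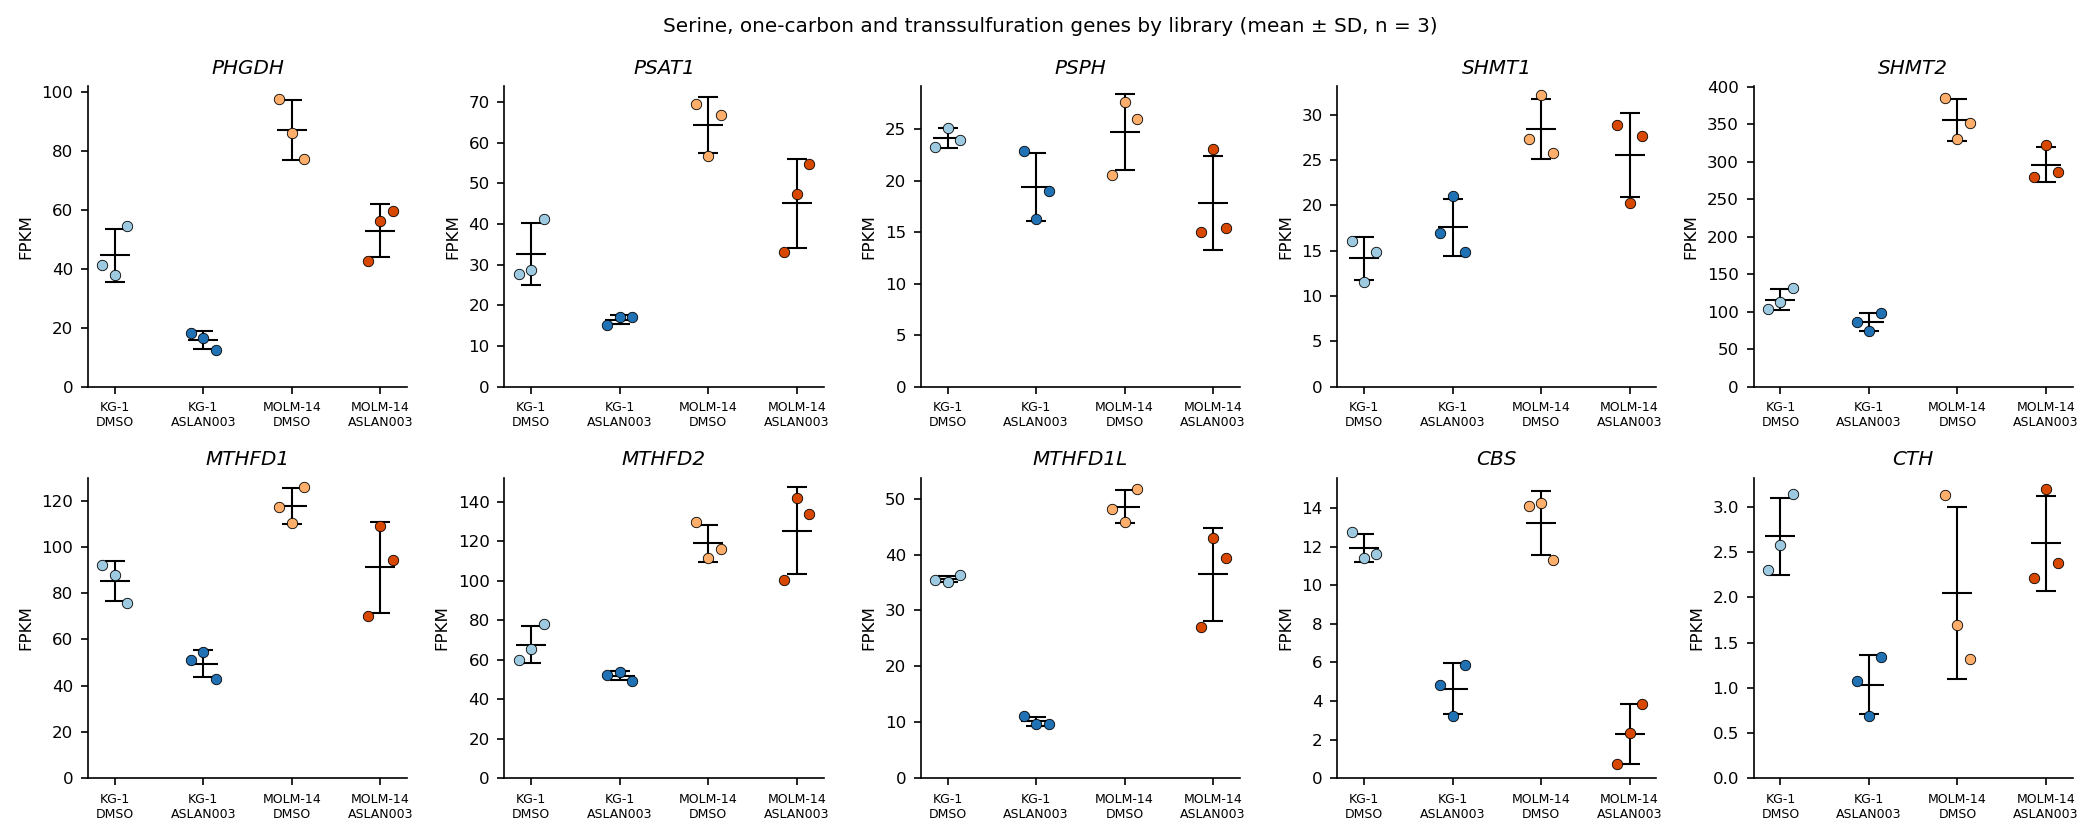
FPKM of each gene in every library (vertical axis from 0, 1 panel per gene), in the 4 groups on the horizontal axis. Points are libraries, and the bar with caps is the mean ± SD of 3 libraries. MTHFD1L in KG-1 drops from 35.1 to 36.3 FPKM under DMSO to 9.65 to 11.2 FPKM under ASLAN003, and SHMT2 is far higher in MOLM-14 than in KG-1.

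PHGDH, the enzyme that commits the glycolytic intermediate to serine (GRCh38 chromosome 1, 119648411 to 119744226, plus strand), stood at 41.1, 37.9 and 54.5 FPKM in the KG-1 DMSO libraries and at 18.4, 16.4 and 12.5 FPKM in those with ASLAN003. The 2 groups were well separated, and the log2 change was -1.44 ± 0.18 (adjusted p = 5.65e-05). In MOLM-14, PHGDH was at 97.6, 85.8 and 77.3 FPKM under DMSO and at 42.7, 56.3 and 59.6 FPKM under ASLAN003. These groups did not overlap either, and the log2 change was -0.71 ± 0.18 (adjusted p = 0.0199). The MOLM-14 call did not survive leaving out ASLAN003 replicate 1 (-0.57, adjusted p = 0.0592), DMSO replicate 1 (adjusted p = 0.0763) or DMSO replicate 2 (adjusted p = 0.0572), and it was also lost in fits of each line alone (adjusted p = 0.0624) and with weights for libraries (adjusted p = 0.0796). The levels of treated MOLM-14 and untreated KG-1 overlapped.

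PSAT1, the aminotransferase of the second step (chromosome 9, 78297143 to 78330093, plus strand), was at 27.8, 28.8 and 41.3 FPKM in KG-1 under DMSO and at 15.3, 17.1 and 17.1 FPKM under ASLAN003. All treated libraries lay below all controls, with a log2 change of -0.92 ± 0.19 (adjusted p = 0.00212). The MOLM-14 values were 69.6, 56.7 and 66.7 FPKM under DMSO and 33.2, 47.4 and 54.8 FPKM under ASLAN003. The groups did not overlap, but the log2 change of -0.53 ± 0.19 missed the threshold (adjusted p = 0.0818). It passed after median centring (-0.68, adjusted p = 0.0368) and without ASLAN003 replicate 3 (adjusted p = 0.0307), and was -0.33 (adjusted p = 0.226) without ASLAN003 replicate 1.

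PSPH, the phosphatase that completes serine synthesis (chromosome 7, 56011051 to 56051604, minus strand), was at 23.3, 25.1 and 23.9 FPKM in KG-1 under DMSO and at 22.9, 16.3 and 19.0 FPKM under ASLAN003. The highest treated library lay just under the lowest control, and the log2 change of -0.31 had a 95% interval of -0.69 to 0.07 (adjusted p = 0.197). Levels in MOLM-14 were 20.5, 27.6 and 26.0 FPKM under DMSO and 15.0, 23.1 and 15.4 FPKM under ASLAN003, where replicate 2 reached into the control range. Its log2 change there was -0.46, with an interval of -0.85 to -0.08 (adjusted p = 0.105), and it passed after median centring (-0.61, adjusted p = 0.0414) and without ASLAN003 replicate 2 (-0.65, adjusted p = 0.0216), and was -0.36 (adjusted p = 0.240) without ASLAN003 replicate 1. PSPH has a closely similar pseudogene, PSPHP1, and its values are uncertain to the extent that fragments were split between them. PHGDH, PSAT1 and PSPH together summed to 101 ± 16.1 FPKM in KG-1 under DMSO and 51.7 ± 4.24 FPKM under ASLAN003, and to 176 ± 10.2 and 116 ± 21.6 FPKM in MOLM-14.

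SHMT2, the mitochondrial serine hydroxymethyltransferase (chromosome 12, 57229327 to 57234935, plus strand), had the highest level of the 10 genes in each group. It was at 104, 113 and 131 FPKM in KG-1 under DMSO and at 86.1, 74.9 and 98.3 FPKM under ASLAN003. The groups were adjacent without overlap, and the log2 change was -0.42 ± 0.12 (adjusted p = 0.0163). The call was lost without DMSO replicate 3 (-0.33, adjusted p = 0.0766), without ASLAN003 replicate 2 (-0.32, adjusted p = 0.0761) and after rescaling (-0.27, adjusted p = 0.0727). In MOLM-14 it was at 385, 330 and 352 FPKM under DMSO and at 280, 322 and 287 FPKM under ASLAN003, a log2 change of -0.26 ± 0.12 (adjusted p = 0.170). The treated libraries lay below the controls by a narrow margin, and the change passed after median centring (-0.41, adjusted p = 0.0463) and was -0.22 (adjusted p = 0.290) without ASLAN003 replicate 1. Every SHMT2 library of MOLM-14 exceeded every KG-1 library.

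SHMT1, the cytosolic form (chromosome 17, 18327860 to 18363563, minus strand), passed in neither line. It was at 16.1, 11.5 and 14.9 FPKM in KG-1 under DMSO and at 16.9, 21.0 and 14.9 FPKM under ASLAN003, with overlapping groups and a log2 change of 0.29 (95% interval -0.09 to 0.68, adjusted p = 0.224). It passed with weights for libraries (0.35, adjusted p = 0.0442). MOLM-14 libraries held it at 27.4, 32.1 and 25.8 FPKM under DMSO and at 28.8, 20.2 and 27.6 FPKM under ASLAN003, again overlapping, with a log2 change of -0.16 (95% interval -0.54 to 0.22, adjusted p = 0.615), or -0.25 (adjusted p = 0.435) without ASLAN003 replicate 1. The ratio of SHMT2 to SHMT1 within a library, in which the library scaling cancels, was 8.34 ± 1.72 under DMSO and 5.09 ± 1.53 under ASLAN003 in KG-1 (exact two-sided permutation p = 0.2, n = 3). In MOLM-14 it was 12.7 ± 2.10 and 12 ± 3.41 (exact permutation p = 0.9, n = 3). The groups of this ratio overlapped in both lines. With 3 libraries against 3, the smallest p an exact two-sided test can give is 0.1.

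MTHFD1L, the mitochondrial synthetase that releases formate (chromosome 6, 150865549 to 151101887, plus strand), was at 35.4, 35.1 and 36.3 FPKM in KG-1 under DMSO and at 11.2, 9.65 and 9.77 FPKM under ASLAN003. Replicates were tight on both sides of a wide gap, and the log2 change was -1.71 ± 0.15 (adjusted p = 4.48e-06). The MOLM-14 values were 48.2, 45.8 and 51.7 FPKM under DMSO and 27.0, 42.9 and 39.4 FPKM under ASLAN003. There all treated libraries lay below the controls, replicate 1 lowest, and the log2 change of -0.43 ± 0.15 did not pass (adjusted p = 0.0788). It passed after median centring (-0.58, adjusted p = 0.0300) and without ASLAN003 replicate 2 (-0.56, adjusted p = 0.0319), and was -0.23 (adjusted p = 0.183) without ASLAN003 replicate 1.

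Promoter windows, running from 250 bases before to 50 bases after a gene start, were matched by symbol in RefSeq (GRCh38.p14) for 8 of the 10 genes, with 13 windows in all. PSPH and SHMT2 had no matched window. They are shown for MTHFD1L and PHGDH, with the lowest adjusted p in KG-1, and for MTHFD1, the cytosolic counterpart of MTHFD1L. Capitals mark matches on either strand to TGATGNAA (the C/EBP-ATF response element), CACGTG (the E-box) and CCAAT or its reverse complement ATTGG (the CCAAT box), and no match shown overlaps another.
MTHFD1L promoter, chr6:150866236-150866535, plus strand: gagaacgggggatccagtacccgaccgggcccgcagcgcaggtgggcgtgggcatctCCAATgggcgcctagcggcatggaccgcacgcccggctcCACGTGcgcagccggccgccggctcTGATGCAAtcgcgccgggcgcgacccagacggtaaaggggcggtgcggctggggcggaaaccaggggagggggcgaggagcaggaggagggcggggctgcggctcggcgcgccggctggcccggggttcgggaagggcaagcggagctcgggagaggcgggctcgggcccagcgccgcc
MTHFD1 promoter, chr14:64388103-64388402, plus strand: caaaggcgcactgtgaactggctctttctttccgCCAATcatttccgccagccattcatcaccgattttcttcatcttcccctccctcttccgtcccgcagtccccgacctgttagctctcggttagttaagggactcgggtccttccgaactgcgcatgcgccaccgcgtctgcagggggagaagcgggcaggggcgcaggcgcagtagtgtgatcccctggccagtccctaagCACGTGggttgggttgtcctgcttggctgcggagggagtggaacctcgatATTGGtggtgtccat
PHGDH promoter, chr1:119711684-119711983, plus strand: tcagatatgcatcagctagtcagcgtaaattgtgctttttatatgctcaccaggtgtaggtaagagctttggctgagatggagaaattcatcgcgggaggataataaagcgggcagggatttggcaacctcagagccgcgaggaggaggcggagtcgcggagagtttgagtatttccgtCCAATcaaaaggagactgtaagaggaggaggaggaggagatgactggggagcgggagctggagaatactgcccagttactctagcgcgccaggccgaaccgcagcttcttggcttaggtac
The first MTHFD1L window holds TGATGCAA at -129, CACGTG at -154 and CCAAT at -193, counted from the start site. TGATGNAA was found in 3.62% of 35116 promoter windows, and among the 8 genes with a window only MTHFD1L held it. CACGTG was found in 7.26% of all windows and in the MTHFD1 window, at -15. For MTHFD1L, windows 1 to 3, which overlap, held both TGATGCAA and CACGTG, and window 4 held neither. The CCAAT box was found in 34.6% of all windows and in at least 1 window of each of the 8 genes, at -71 in PHGDH. The shares count single windows, whereas a gene counted if any of its windows held a match, so they are not like for like. A match is a stretch of letters and no measure of binding.

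MTHFD1, the cytosolic enzyme of 3 linked folate steps (chromosome 14, 64388031 to 64463457, plus strand), was at 92.1, 87.9 and 75.7 FPKM in KG-1 under DMSO and at 51.2, 54.4 and 43.1 FPKM under ASLAN003. The groups were clearly apart, with a log2 change of -0.77 ± 0.15 (adjusted p = 0.00170). Its MOLM-14 levels were 117, 110 and 126 FPKM under DMSO and 69.9, 109 and 94.4 FPKM under ASLAN003. Treated replicate 2 nearly touched the lowest control there, and the log2 change of -0.39 ± 0.15 did not pass (adjusted p = 0.112). It passed after median centring (-0.54, adjusted p = 0.0405) and without ASLAN003 replicate 2 (-0.53, adjusted p = 0.0376), and was -0.21 (adjusted p = 0.296) without ASLAN003 replicate 1.

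MTHFD2, the mitochondrial dehydrogenase and cyclohydrolase (chromosome 2, 74198562 to 74217565, plus strand), was at 59.8, 65.4 and 77.9 FPKM in KG-1 under DMSO and at 52.5, 53.7 and 49.5 FPKM under ASLAN003. All treated libraries were below the controls, but the log2 change of -0.37 ± 0.14 narrowly missed the threshold (adjusted p = 0.0524). It passed in several other settings, among them median centring (-0.49, adjusted p = 0.0149) and leaving out MOLM-14 ASLAN003 replicate 1 (adjusted p = 0.0126), which alters only the pooled spread. MOLM-14 had it at 130, 112 and 116 FPKM under DMSO and at 100.2, 142 and 134 FPKM under ASLAN003. The treated libraries fell on both sides of the controls, with a log2 change of 0.06 (95% interval -0.23 to 0.35, adjusted p = 0.826), whose sign turned after median centring (-0.089), after quantile normalization (-0.003) and without ASLAN003 replicate 2 (-0.035), and which was 0.21 (adjusted p = 0.255) without ASLAN003 replicate 1.

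The ratio of MTHFD1L to MTHFD1 within a library compares the mitochondrial and cytosolic genes for the formate step. In KG-1 it was 0.385, 0.3995 and 0.479 under DMSO and 0.218, 0.178 and 0.227 under ASLAN003, without overlap (mean log2 change -1.02, exact permutation p = 0.1, n = 3, the smallest possible). In MOLM-14 it was 0.413 ± 0.00301 under DMSO and 0.399 ± 0.0167 under ASLAN003, with overlapping groups (exact permutation p = 0.4, n = 3). The ratio of MTHFD2 to MTHFD1 was 0.807 ± 0.197 and 1.05 ± 0.0840 in KG-1, overlapping (exact permutation p = 0.3, n = 3). In MOLM-14 it was 1.10, 1.01 and 0.922 under DMSO and 1.43, 1.30 and 1.42 under ASLAN003, without overlap (log2 change 0.45, exact permutation p = 0.1, n = 3). In MOLM-14 the log2 change of the MTHFD2 ratio was 0.43 without ASLAN003 replicate 1, that of the MTHFD1L ratio was -0.02, and that of SHMT2 to SHMT1 changed sign to 0.04. Adjusted over the 6 ratio comparisons, the p-values ran from 0.3 to 0.9.

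**Figure D2:**
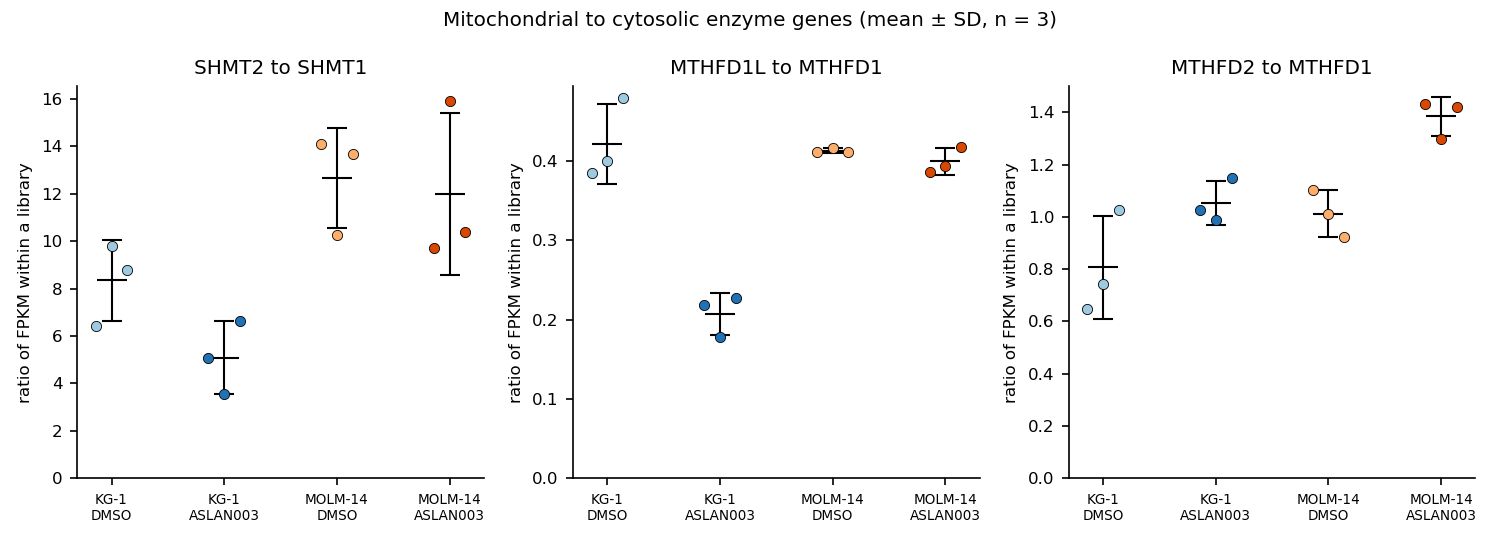
Ratio of FPKM between 2 genes within each library (vertical axis from 0), in 1 panel per gene pair and in the 4 groups on the horizontal axis. Points are libraries, and the bar with caps is the mean ± SD of 3 libraries. MTHFD1L to MTHFD1 is near 0.4 in 3 groups and 0.207 in KG-1 with ASLAN003, and MTHFD2 to MTHFD1 is higher with ASLAN003 in MOLM-14.

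CBS, which condenses serine with homocysteine (chromosome 21, 43053191 to 43076943, minus strand), was at 12.7, 11.4 and 11.6 FPKM in KG-1 under DMSO and at 4.85, 3.24 and 5.86 FPKM under ASLAN003. The treated libraries were all far below the controls, with a log2 change of -1.22 ± 0.30 (adjusted p = 0.00813). MOLM-14 libraries held it at 14.1, 14.3 and 11.3 FPKM under DMSO and at 0.72, 2.33 and 3.83 FPKM under ASLAN003. The separation was again complete, though the treated libraries varied widely, and the log2 change was -2.23 ± 0.30 (adjusted p = 0.000867), or -1.82 (adjusted p = 0.000728) without ASLAN003 replicate 1. CBS was called lower in both lines under every alternative run. CBS has a near-identical copy, CBSL, which was not analysed here, so the level of CBS is uncertain to the extent that the authors' counting split fragments between the copies.

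CTH, which cleaves cystathionine to cysteine (chromosome 1, 70411218 to 70439851, plus strand), had the lowest mean level of the 10 genes in every group but treated MOLM-14. It was at 2.30, 2.58 and 3.14 FPKM in KG-1 under DMSO and at 1.08, 0.69 and 1.34 FPKM under ASLAN003. These groups did not overlap, and the log2 change was -0.86 ± 0.24 (adjusted p = 0.0143). The call was lost without DMSO replicate 3 (-0.77, adjusted p = 0.0577) and without ASLAN003 replicate 2 (-0.73, adjusted p = 0.0640). In MOLM-14 it was at 3.13, 1.70 and 1.32 FPKM under DMSO and at 2.22, 3.2 and 2.38 FPKM under ASLAN003, overlapping, with a log2 change of 0.27 (95% interval -0.24 to 0.79, adjusted p = 0.50), or 0.35 (adjusted p = 0.429) without ASLAN003 replicate 1.

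**Figure D3:**
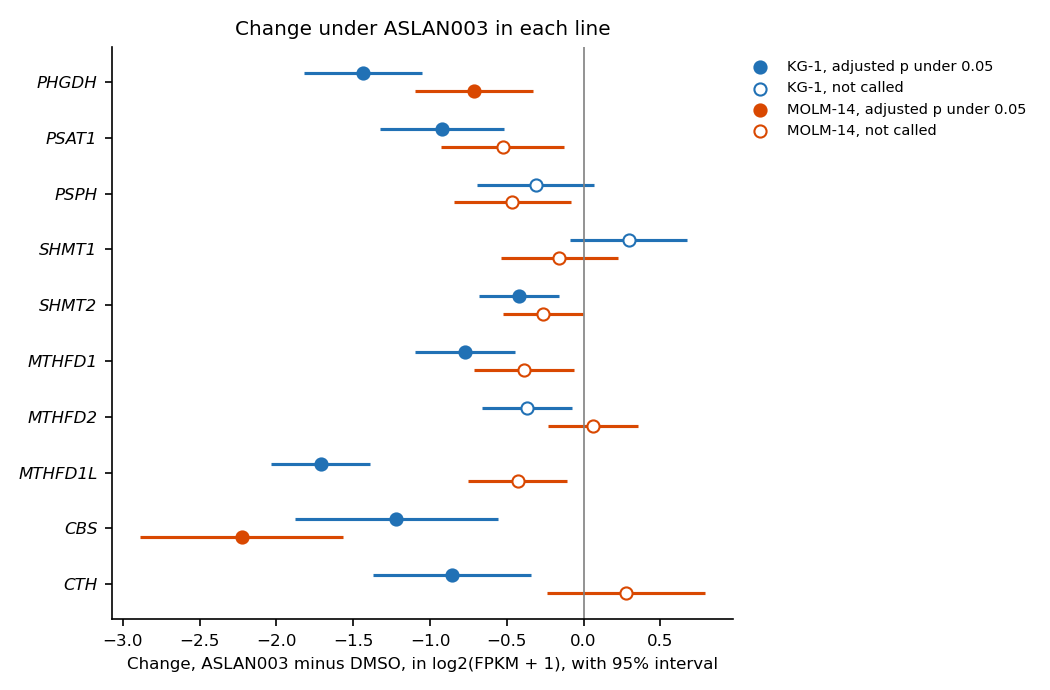
Log2 change of each gene under ASLAN003 in KG-1 (blue) and MOLM-14 (orange), on the log2(FPKM + 1) scale of the horizontal axis, with the 95% interval as a line. Filled points have an adjusted p under 0.05: 7 in KG-1 and 2 in MOLM-14, all below 0.

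Counted over the 10 genes, treated and control libraries did not overlap for 9 in KG-1 (55.9% of all tested genes) and for 6 in MOLM-14 (25.9%). At an unadjusted p under 0.05, 8 genes passed in KG-1 and 7 in MOLM-14, against 43.5% and 28.0% of all tested genes. The MOLM-14 count of 2 called genes rose to 7 after median centring, all lower, beside 6.90% of all tested genes called lower in that setting. It was 5 without ASLAN003 replicate 2, all lower (3.69% of all tested genes), 3 without ASLAN003 replicate 3, and 1 without DMSO replicate 1 or 2. Without ASLAN003 replicate 1 it was 1, CBS (3.35% of all tested genes called lower). The KG-1 count ranged from 5 to 9 over the alternatives, beside 3316 to 7014 calls among all 13353 tested genes. The 9, of which 8 were lower and 1, SHMT1, was higher, came with weights for libraries. In that setting 7014 genes were called against 4494 in the main fit. In MOLM-14 all-gene calls ranged from 346 to 2457 over the alternatives, against 1738 in the main fit. They numbered 1134 and 1070 without DMSO replicates 1 and 2.

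Whether the lines responded differently was tested as the difference of their changes, KG-1 minus MOLM-14. Of the 10 genes, 1 passed, MTHFD1L, against 9.94% of all tested genes (4.89% lower and 5.05% higher). MTHFD1L fell more in KG-1, by a difference of -1.28 ± 0.21 on the log2 scale (95% interval -1.74 to -0.83, adjusted p = 0.00316). CTH came next by adjusted p, with a difference of -1.13 ± 0.34 (adjusted p = 0.0516), followed by PHGDH with -0.72 ± 0.25 (adjusted p = 0.0897). CBS had a difference of 1.01 ± 0.43 toward a larger fall in MOLM-14, which did not pass (95% interval 0.07 to 1.94, adjusted p = 0.167), but did without MOLM-14 ASLAN003 replicate 3 (1.34, adjusted p = 0.0412), and was 0.60 (adjusted p = 0.193) without MOLM-14 ASLAN003 replicate 1. For PSPH the interval of the difference ran from -0.39 to 0.69 and for SHMT2 from -0.52 to 0.21. Without MOLM-14 ASLAN003 replicate 1, 5 genes passed, all with the more negative change in KG-1. They were MTHFD1L (-1.48, adjusted p = 0.000108), MTHFD2 (-0.58, adjusted p = 0.0217), PHGDH (-0.87, adjusted p = 0.0269), CTH (-1.21, adjusted p = 0.0352) and MTHFD1 (-0.56, adjusted p = 0.0357). In that setting 8.84% of all tested genes passed with a more negative change in KG-1, against 4.89% with all libraries. That setting lacks the treated MOLM-14 library farthest from the controls on the second principal component. Without MOLM-14 DMSO replicate 1, CTH passed beside MTHFD1L (adjusted p = 0.0211), as it did after quantile normalization (adjusted p = 0.0296).

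The lines also differed before treatment. Under DMSO, 7 of the 10 genes were lower in KG-1 than in MOLM-14 and none was higher, against 22.1% of all tested genes that were lower, 27.1% that were higher and 49.2% that differed. SHMT2 had the largest of these differences, -1.61 ± 0.12 on the log2 scale (adjusted p = 2.46e-07), with means of 116 ± 14.1 FPKM in KG-1 and 356 ± 28.0 FPKM in MOLM-14. PSAT1 (-0.98 ± 0.19, adjusted p = 0.000816), SHMT1 (-0.96 ± 0.18, adjusted p = 0.000616), PHGDH (-0.96 ± 0.18, adjusted p = 0.000656) and MTHFD2 (-0.81 ± 0.14, adjusted p = 0.000302) followed. MTHFD1 (-0.46 ± 0.15, adjusted p = 0.0217) and MTHFD1L (-0.44 ± 0.15, adjusted p = 0.0284) were called with smaller differences. Both lost the call after rescaling (adjusted p = 0.0789 and 0.0979) and without KG-1 DMSO replicate 3 (0.0896 and 0.0600), MOLM-14 DMSO replicate 1 (0.0509 and 0.0616) or MOLM-14 DMSO replicate 3 (0.0708 and 0.0853), and MTHFD1L also without KG-1 DMSO replicate 1 (0.0700) or 2 (0.0744). PSPH, CBS and CTH did not pass, with 95% intervals of -0.41 to 0.36, -0.79 to 0.53 and -0.21 to 0.82. The libraries of the lines did not overlap for 7 of the 10 genes, against 63.3% of all tested genes.

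Other genes of the pathway were called in both directions. The counts of this list and of those that follow stand beside the shares of all tested genes called. In KG-1 these were 33.7% in either direction, 19.4% higher and 14.3% lower. In MOLM-14 they were 13.0%, 9.69% and 3.33%. Of 20 further folate cycle and glycine cleavage genes, 16 were tested. In KG-1, 2 rose and 6 fell (median -0.24), and in MOLM-14, 1 rose and 1 fell (median -0.07). The MOLM-14 calls, 2 of 16, lay near the share of all tested genes. SLC19A1, the reduced folate carrier, fell in both lines, from 29.5 ± 2.52 to 14.7 ± 2.07 FPKM in KG-1 (-0.97 ± 0.16, adjusted p = 0.000621) and from 45.7 ± 10.0 to 27.5 ± 2.85 FPKM in MOLM-14 (-0.69 ± 0.16, adjusted p = 0.0161, or -0.62 and 0.0445 without ASLAN003 replicate 1). GCSH, the lipoyl carrier of the glycine cleavage system, fell in KG-1 from 57.6 ± 7.23 to 17.5 ± 2.89 FPKM (adjusted p = 0.000195), and ALDH1L2, a mitochondrial formyl-folate dehydrogenase, from 2.59 ± 0.813 to 0.607 ± 0.289 FPKM (adjusted p = 0.00181). MTHFS, which recycles 5-formyl-folate, rose in KG-1 from 28.4 ± 3.25 to 71.7 ± 3.36 FPKM (adjusted p = 6.67e-05). MTHFD2L, a paralogue of MTHFD2, rose in MOLM-14 from 1.99 ± 0.709 to 3.71 ± 0.315 FPKM (adjusted p = 0.0443), a call lost without ASLAN003 replicate 1 (adjusted p = 0.0537). Over the alternatives the list had 5 to 8 calls in KG-1, the lowest without DMSO replicate 1 and after rescaling, and 0 to 4 in MOLM-14, none of them higher after median centring or quantile normalization.

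In the methionine cycle, which supplies the homocysteine that CBS uses, 9 of 13 genes were tested, of which 3 rose and 4 fell in KG-1 (median 0.09) and 1 rose and 1 fell in MOLM-14 (median -0.09). AHCY, which releases homocysteine, fell in KG-1 from 380 ± 12.8 to 165 ± 8.996 FPKM (-1.20 ± 0.11, adjusted p = 4.64e-06) and in MOLM-14 from 167 ± 13.1 to 127 ± 17.2 FPKM (-0.40 ± 0.11, adjusted p = 0.0251). MAT2A, which makes S-adenosylmethionine, fell in KG-1 by 0.40 on the log2 scale (adjusted p = 0.0110), and MTRR, the reductase that keeps methionine synthase active, rose by 0.71 (adjusted p = 0.00240). AHCYL2 rose in KG-1 by 0.78 (adjusted p = 0.0140) and AHCYL1 in MOLM-14 by 0.49 (adjusted p = 0.0198), both relatives of AHCY. Without MOLM-14 ASLAN003 replicate 1, the MOLM-14 changes were -0.29 for AHCY (adjusted p = 0.0469) and 0.35 for AHCYL1 (adjusted p = 0.0400). The KG-1 count of 7 calls dropped to 3 without ASLAN003 replicate 1 and to 4 without ASLAN003 replicate 2, DMSO replicate 1 or DMSO replicate 3. In MOLM-14 it dropped to 0 without DMSO replicate 2 and to 1 without DMSO replicate 1 or 3, no rise was called there after median centring or quantile normalization, and no fall after rescaling.

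Downstream of CTH, 13 of 15 sulfur and glutathione genes were tested, of which 1 rose and 4 fell in KG-1 (median -0.03) and 1 rose and none fell in MOLM-14 (median 0.12). SQRDL, the mitochondrial sulfide oxidase, rose from 13.8 ± 2.27 to 42.9 ± 7.84 FPKM in KG-1 (adjusted p = 8.33e-05) and from 26.7 ± 3.28 to 63.9 ± 19.7 FPKM in MOLM-14 (adjusted p = 0.00291). Without ASLAN003 replicate 1 its log2 change in MOLM-14 was 0.96 (adjusted p = 0.00508) in place of 1.19. GGCT, of the glutathione cycle, fell in KG-1 from 115 ± 2.20 to 48.0 ± 2.27 FPKM (adjusted p = 0.000357). The sulfur dioxygenase ETHE1 fell there by 0.65 (adjusted p = 0.00160) and glutathione synthetase GSS by 0.69 (adjusted p = 0.00357) on the log2 scale. The list had 4 to 6 calls in KG-1 over the alternatives and 1 in MOLM-14, or 2 there after rescaling and without KG-1 ASLAN003 replicate 3 or MOLM-14 ASLAN003 replicate 3.

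Of 12 genes of serine use and breakdown, 10 were tested, of which 3 rose and 3 fell in KG-1 (median 0.05) and 2 rose and 1 fell in MOLM-14 (median 0.23). GCAT, a mitochondrial enzyme that forms glycine from threonine's breakdown product, fell from 19.6 ± 1.05 to 5.97 ± 0.703 FPKM in KG-1 (adjusted p = 1.74e-06) and from 14.5 ± 0.203 to 8.94 ± 0.193 FPKM in MOLM-14 (adjusted p = 0.00476). SERINC1, a membrane protein named for serine incorporation, rose in both lines, by 1.17 in KG-1 (adjusted p = 7.35e-06) and 0.40 in MOLM-14 (adjusted p = 0.0330). PTDSS1, which makes phosphatidylserine, fell in KG-1 by 0.56 (adjusted p = 0.000419) and SERINC3 rose by 0.48 (adjusted p = 0.00166). SRR, serine racemase, rose in MOLM-14 from 1.53 ± 0.400 to 3.68 ± 0.949 FPKM (adjusted p = 0.0297), a call lost without ASLAN003 replicate 1 (adjusted p = 0.0698). Without that library GCAT had a log2 change of -0.63 (adjusted p = 0.00979) and SERINC1 of 0.43 (adjusted p = 0.0376) in MOLM-14. The MOLM-14 count of 3 calls was 1 without DMSO replicate 1 or ASLAN003 replicate 3, and none was a rise after median centring or quantile normalization.

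ATF4 is known as the transcription factor that raises PHGDH, PSAT1, PSPH, SHMT2, MTHFD2, CTH and other amino acid genes under stress. Its own level was 260, 239 and 334 FPKM in KG-1 under DMSO and 170, 169 and 145 FPKM under ASLAN003 (log2 change -0.77 ± 0.14, adjusted p = 0.000923), without overlap. In MOLM-14 it was 314, 318 and 315 FPKM under DMSO and 196, 264 and 260 FPKM under ASLAN003, also without overlap but not called (-0.41 ± 0.14, adjusted p = 0.0710, or -0.27 and 0.184 without ASLAN003 replicate 1). Of 14 ATF4 pathway genes outside the 10 enzymes, ATF4 among them, 13 were tested. In KG-1, 1 rose and 6 fell (median -0.30), and in MOLM-14 none rose and 2 fell (median -0.26). DDIT4, an inhibitor of mTORC1 signalling, fell from 204, 176 and 220 to 43.8, 41.2 and 61.6 FPKM in KG-1 (adjusted p = 1.56e-06) and from 255 ± 13.0 to 127 ± 19.0 FPKM in MOLM-14 (adjusted p = 0.00149). STC2, a secreted glycoprotein, fell in both lines, by 2.12 in KG-1 (adjusted p = 4.16e-05) and by 1.41 in MOLM-14 (adjusted p = 0.00388) on the log2 scale. PYCR1, of proline synthesis, fell in KG-1 by 1.13 (adjusted p = 0.000346). TRIB3, a pseudokinase of the same pathway, moved the other way in KG-1, from 29.9 ± 3.09 to 88.8 ± 3.13 FPKM (adjusted p = 1.29e-05). Without MOLM-14 ASLAN003 replicate 1, DDIT4 had a log2 change of -0.89 (adjusted p = 0.00415) and STC2 of -1.23 (adjusted p = 0.0107) in MOLM-14. Over the alternatives the list had 6 to 9 calls in KG-1 and 2 to 5 in MOLM-14, the highest after median centring (5, all lower). Neither the activity of ATF4 nor its part in the changes of the 10 enzymes was tested.

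Growth-related genes were read beside these. Of 6, 5 were tested, of which 3 fell in KG-1 (median -0.39) and none was called in MOLM-14 (median -0.21). MYC, a growth factor-responsive transcription factor, was at 148 ± 17.7 and 59.7 ± 12.5 FPKM in KG-1 (-1.31 ± 0.24, adjusted p = 0.000965). Levels in MOLM-14 were 299 ± 6.23 and 221 ± 79.7 FPKM (-0.51 ± 0.24, adjusted p = 0.177), with replicate 1 at 129 FPKM, without which the change was -0.17 (adjusted p = 0.511). The MOLM-14 count was 1 after median centring and without ASLAN003 replicate 2. MCM2 and PCNA, of DNA replication, fell in KG-1 by 0.54 (adjusted p = 0.00624) and 0.39 (adjusted p = 0.00890) on the log2 scale. The part of these genes in the changes of the 10 enzymes was not tested.

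**Figure D4:**
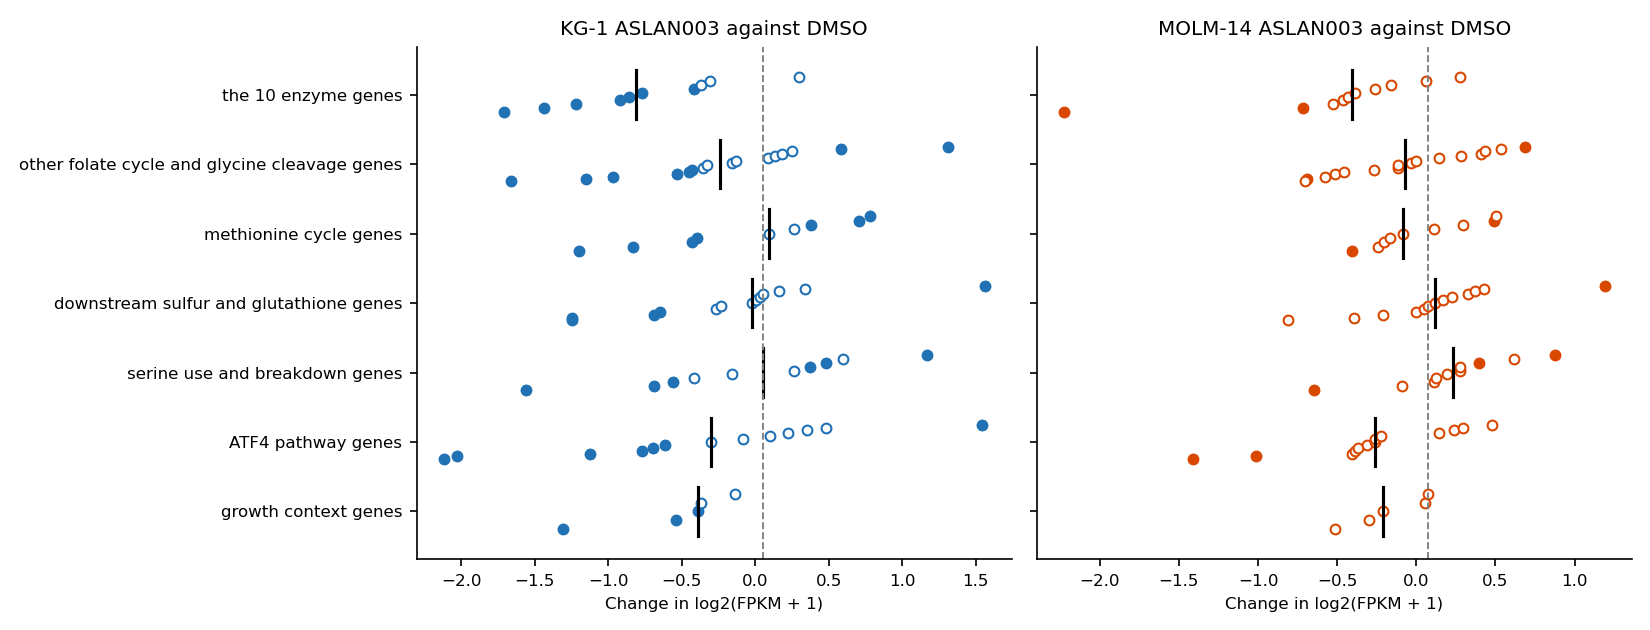
Log2 change of each tested gene under ASLAN003 in KG-1 (left) and MOLM-14 (right), on the log2(FPKM + 1) scale of the horizontal axis, by gene list. Filled points passed at an adjusted p under 0.05, black bars are list medians and the dashed line is the median of all tested genes. The 10 enzyme genes have a median of -0.82 in KG-1 and -0.41 in MOLM-14, and the other lists hold genes on both sides of 0, except growth genes in KG-1.

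The pattern of each gene over the 4 groups was compared with all tested genes by the Euclidean distance between their 4 group means of log2(FPKM + 1), each centred on its own mean, for the 7 genes whose means spanned more than 1. Nearest to PHGDH were CTB-63M22.1 (distance 0.11), RPLP0 (0.12), which encodes a ribosomal stalk protein, and PCK2 (0.15), which encodes mitochondrial phosphoenolpyruvate carboxykinase. MTHFD1L lay nearest to IMPDH2 (0.09), which encodes an enzyme of guanine nucleotide synthesis, then VPS9D1-AS1 (0.10) and POLR3G (0.15). MTHFD2 lay nearest to PCNA (0.02), then MRI1 (0.05) and LAP3 (0.05). For PSAT1 the nearest were RPL12P4 (0.05), SORD (0.05) and RPS25 (0.09), for SHMT2 INTS9 (0.05), BUB3 (0.07) and RRS1 (0.07), and for MTHFD1 KCTD15 (0.02), RGS5 (0.03) and RPL28 (0.05). CBS had no close neighbour, since its nearest, SNORA48, lay at 0.30. Among the 10 genes themselves, PHGDH and MTHFD1L were nearest to each other, at 0.37, and CBS stood farthest from its nearest, PSPH, at 1.44. With 4 points per gene, these distances are a description only.

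Exons of SHMT1, SHMT2 and MTHFD1 overlap those of SMCR8, NDUFA4L2 and ZBTB25 on the opposite strand in GENCODE 29, all 3 listed in the table, and those of MTHFD2 overlap SLC4A5. The kit marks strand per the labels, but no source used here says whether the counting used it, so fragments of such pairs may not have been told apart.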

How the data were processed

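Gene expression was measured by paired-end RNA sequencing of total RNA in 12 libraries from a stranded kit, per the labels' protocols. The tools were RSEM 1.2.25, STAR 2.4.2a and bcl2fastq 2.17.1.14, with builds hg38 and GRCh38, per the submitters' processing notes. No source used here gives the annotation or strand setting. The authors deposited 1 log2 value per gene and library, whose values fit log2(FPKM + 1) after rounding to 0.01, and FPKM was recovered from them. No counts were used, and depth was estimated from the steps between low FPKM values, of which 79.0% to 84.6% per library lay near whole fragments, within the tolerance of 0.15 fragment. The number of libraries limits the precision.

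With limma 3.58.1 in R 4.3.3, 4 group means were fitted to log2(FPKM + 1) of genes reaching 1 FPKM in 3 or more libraries (pseudocount 1, eBayes with trend and robust estimation, two-sided, Benjamini-Hochberg over 13353 genes, called at an adjusted p under 0.05). The script was tested on simulated data. Ratios of 2 genes were compared by exact permutation of libraries. Gene positions are from GENCODE 29 (GRCh38), matched by gene identifier. The 10 genes, the gene lists and the tests were chosen with earlier results of these data known. Named from each pathway list were at most 4 genes per line called under treatment, those with the lowest adjusted p. ATF4, MYC and the line markers CD34, HOXA9, MEIS1, CD33 and SPI1 were named besides. Other cell markers were named outside this rule. Alternatives were a pseudocount of 0.1, no filter or one of 5 FPKM, 3 other scalings, each line alone, no trend and no robust estimation, weights for libraries, replicate blocks and leaving out each library.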

Additional observations from a re-analysis of the deposited data

Results flagged for a closer look

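The change under ASLAN003 differed between the lines for 1 of the 10 enzyme genes, by the test of the difference itself. That test was of KG-1 minus MOLM-14 (limma, adjusted p under 0.05). It also passed for 11 genes of the lists around them, cell marker lists left aside. MTHFD1L fell more in KG-1 (difference -1.28, adjusted p = 0.00316). So did AHCY (-0.80, adjusted p = 0.00609), GCAT (-0.92, adjusted p = 0.00580) and DDIT4 (-1.02, adjusted p = 0.0116), which fell in both lines. PTDSS1 (-0.68, adjusted p = 0.00603), GSS (-1.11, adjusted p = 0.00674) and ETHE1 (-0.77, adjusted p = 0.0174) fell in KG-1 and had log2 changes of 0.12, 0.43 and 0.12 in MOLM-14, none of which passed there. MTHFD2L had a difference of -1.04 (adjusted p = 0.0385), from a change of -0.36 in KG-1 that did not pass and a rise of 0.68 in MOLM-14. TRIB3 (1.81, adjusted p = 0.000582), MTRR (0.79, adjusted p = 0.0294) and MTHFS (0.88, adjusted p = 0.0334) rose in KG-1, beside changes of -0.26, -0.09 and 0.44 in MOLM-14 that did not pass. SERINC1 rose in both lines, and more in KG-1 (0.78, adjusted p = 0.00856). Of all tested genes, 9.94% passed this test, and 1 of 10 enzyme genes lies near that share. The list genes that passed were 2 of 16 for the folate list, 2 of 9 for the methionine cycle and 2 of 13 for the sulfur list. They were 3 of 10 for serine use, 2 of 13 for the ATF4 pathway and 0 of 5 for growth. Without MOLM-14 ASLAN003 replicate 1, these 12 genes kept the sign of the difference and stayed under the threshold. Their adjusted p-values were 0.000108 to 0.0332. Calls over all tested genes rose from 1327 to 2357 in that setting, so it is a lenient check. Over 21 alternatives MTHFD1L kept its call. The folate list, with MTHFS and MTHFD2L, had 0 to 4 calls, so both lost theirs in at least 1. Calls numbered 1 to 3 in the methionine cycle and sulfur lists, 3 to 4 for serine use and 2 to 4 for the ATF4 pathway.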

How the results depend on the processing

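The KG-1 count of called enzyme genes (7) stayed between 5 and 9 under 22 alternatives. The 9, with weights for libraries, included 1 rise, of SHMT1. The count between the lines under DMSO (7) stayed between 5 and 7 under 21. Calls over all tested genes ranged from 3316 to 7014 and from 5561 to 8114 in these comparisons. The MOLM-14 count (2) was 7 after median centring, 1 with each line fitted alone, 1 with weights for libraries, 1 with the replicate number as a block, and 1 to 5 when each library was left out in turn. The count for the difference of the changes (1) was 2 after quantile normalization, 2 after rescaling, 2 without trend and robust estimation, 2 with weights, and 1 to 5 over left-out libraries. Of 40 single-gene results, 20 kept their direction and side of the threshold throughout. Signs turned for uncalled values only: MTHFD2 in MOLM-14 was -0.089 after centring, -0.003 after quantile normalization and -0.035 (without ASLAN003 replicate 2) to 0.212 over left-out libraries, and between the lines under DMSO PSPH was 0.118 and CBS 0.006 after rescaling, and PSPH -0.147 to 0.058 over left-out libraries, above 0 without MOLM-14 DMSO replicates 2 (0.058) and 3 (0.014). The cause was not tested. CTH has no value under the filter of 5 FPKM, and each line alone gives none for comparisons between the lines.

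Whether replicate numbers pair the libraries was not settled. Deviations of same-numbered libraries correlated at -0.002 to 0.1 over 6 pairs, and of others at -0.083 to 0.049. Deviations from a group mean cancel out within the group, so these correlations depend on each other and cannot decide the question. With the block, PHGDH in MOLM-14 lost its call (adjusted p = 0.0599).

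With weights for libraries, counts over all genes went from 4494 to 7014 in KG-1, 1738 to 953 in MOLM-14 and 1327 to 2226 for the difference. MOLM-14 had 346 calls alone and 1134 and 1070 without DMSO replicates 1 and 2. The difference had 745, 809, 775 and 857 calls without KG-1 DMSO replicates 1 and 2 and ASLAN003 replicates 1 and 2, and 2357 without MOLM-14 ASLAN003 replicate 1. Values under about 1 FPKM rest on few fragments. Among them were CTH in KG-1 ASLAN003 replicate 2 (0.69 FPKM) and CBS in MOLM-14 ASLAN003 replicate 1 (0.72 FPKM).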
